A study of Rattus norvegicus with 16 samples.

Results

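Kidneys of rats that received deoxycorticosterone acetate (DOCA) together with spironolactone were compared with control kidneys by bulk RNA-Seq, gene by gene across all genes with enough counts. The comparison used 7 of the 16 libraries of the series, 3 from spironolactone rats (replicates 1 to 3) and 4 from control rats (replicates 1 to 4). The study set aside 1 spironolactone and 1 DOCA library as outliers, which the labels do not name. Spironolactone replicate 4 and DOCA replicate 4 were left out of the tests here, and spironolactone replicate 4 was examined separately and in a repeat of the test. All animals were Sprague-Dawley rats, male per the study's methods, with an age of 6 weeks in the labels. The methods give the same 6 weeks as the time from the start of DOCA to collection, so the label may not hold the age. Spironolactone rats had a kidney removed, were injected with DOCA, drank salt water and were given spironolactone by gavage. Control rats had a sham operation, sesame oil injections and tap water. Differences between both groups therefore cover the operation, DOCA, salt, gavage and drug together, and their parts cannot be told apart. The other groups of the series were DOCA rats given vehicle by gavage without an antagonist, and DOCA rats given finerenone. Both had the same operation and salt.

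Aldosterone and DOCA act through the mineralocorticoid receptor, a transcription factor that raises sodium reabsorption in the distal nephron and collecting duct. Excess activation together with salt raises blood pressure and leads to glomerular and tubular damage, inflammation and fibrosis of the kidney. Spironolactone is a steroidal antagonist that competes with these hormones for the receptor, and finerenone is a nonsteroidal one.

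Control libraries held 7379631 ± 326464 counts (SD, n = 4), spironolactone libraries 7723501 ± 282557 counts (SD, n = 3), and 10932887 were found in spironolactone replicate 4. At least 1 count was found for 15314 ± 83.6 genes (SD, n = 4) in control and 16001 ± 42.2 genes (SD, n = 3) in spironolactone libraries. Genes were identified by Ensembl IDs, and 0 of 32623 IDs could be given a gene name from the sources used here. Pathways, cell type markers, the receptor itself and promoter sequences are therefore not reported, and the kidney label was not checked against marker genes. Each library carries a code of a pair of numbers, and no first number occurs in both groups, so whatever that number marks cannot be told apart from treatment. Spironolactone replicates 1 and 2 shared a first number, as did control replicates 2 and 3. The main fit treated them as separate samples. The labels do not say whether libraries came from separate animals, so p-values measure the spread between these samples.

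A large part of the kidney transcriptome differed between spironolactone-treated and control rats. Of 14040 genes tested, 3379 (24.1%) were called, of which 2082 (14.8%) were higher and 1297 (9.24%) lower in spironolactone rats. A call required an adjusted p under 0.05 in edgeR's quasi-likelihood test and a log2 fold change of 0.5 or more in either direction. The median log2 fold change was 1.19 in genes called higher and -0.717 in genes called lower, and the standard error of a tested gene had a median of 0.173. At least a 2-fold change was reached by 1265 of the genes called higher (60.8%) and by 277 of those called lower (21.4%). An 8-fold change was reached by 119 (5.72%) and 15 (1.16%), and a 16-fold change by 46 and 6. Genes called higher were mostly rare, and rare genes had larger standard errors and so needed a larger change to be called. How far this sets the sizes above was not tested. A further 1198 genes passed the adjusted p with a smaller fold change.

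Directions depended on the scale and the threshold. CPM, counts divided by library size, were scaled here by the trimmed mean of M values (TMM), with which 61.6% of called genes were higher in spironolactone rats and all tested genes had a median log2 fold change of 0.03. With library size alone the share was 90.0% and the median 0.32. With limma on log2(TPM + 1), where TPM is a length-scaled share of each library, they were 96.0% and 0.43, and there unit, scaling and test all differed. The threshold mattered too. Without a fold change limit 53.1% of the genes passing adjusted p were higher, and with a minimum log2 fold change of 1 the share was 82.0%.

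**Figure D1:**
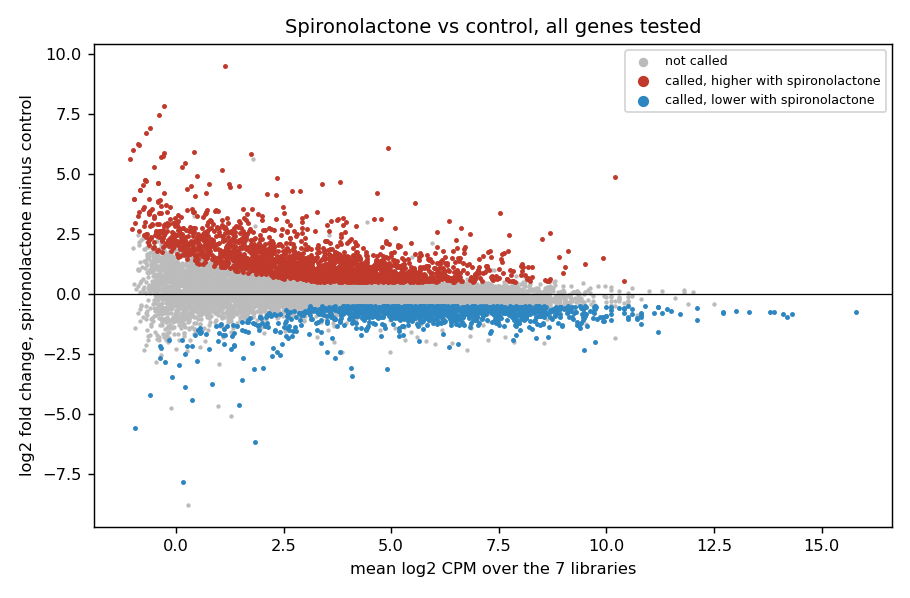
Log2 fold change, spironolactone minus control, plotted against mean log2 CPM over the 7 libraries for each of the 14040 genes tested (1 point per gene). Genes called higher (red) spread widely at low levels, and genes called lower (blue) extend to the most abundant transcripts with small fold changes.

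The 3 spironolactone and 4 control libraries were fully apart in CPM for 5707 tested genes (40.6%), in 3077 with spironolactone above and in 2630 with spironolactone below control. Among called genes 3237 (95.8%) were apart. In 8 tested genes all 4 control libraries were at 0. Such genes could pass the filter, a count above 4 in at least 3 libraries, only if all 3 spironolactone libraries were above it. Their direction therefore follows from the filter. All 8 were called higher, which is no support for a difference. The highest of them had 100 counts over the 3 spironolactone libraries. In 3 tested genes all spironolactone libraries were at 0, and 2 of them were called lower. These 3 could pass the filter only through control libraries above it, so their calls are no support either. A floor of 3 counts corresponded to between 0.426 and 0.485 CPM in control libraries.

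On the TMM scale the genes that fell were mostly abundant and the genes that rose mostly rare. The mean TPM over the 7 libraries had a median of 47.4 (quartiles 16.4 and 159) for genes called lower, compared with 4.64 (1.9 and 11.4) for genes called higher and 9.61 (3.1 and 27.2) for all genes tested. Of the 100 most abundant genes, with a mean TPM of at least 1090, 46 were called lower and 4 higher. Of the genes at ranks 501 to 2000, 25.7% were called lower and 6.33% higher. Beyond rank 10000, at a mean TPM of at most 3.77, 2.33% were called lower and 22.7% higher. Precision also changed with level, with a median standard error of 0.13 in the 100 most abundant genes and 0.40 beyond rank 10000. In such bulk samples, fewer cells of a type and less RNA per cell cannot be told apart.

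**Figure D2:**
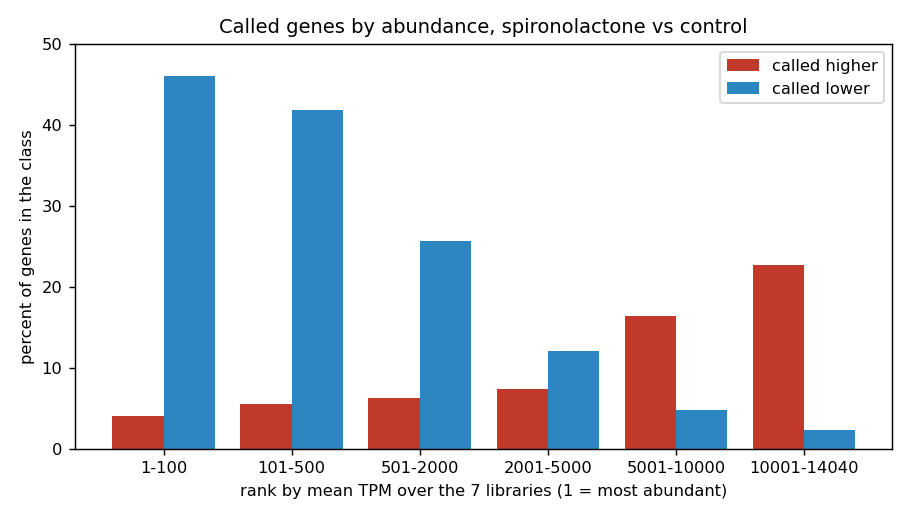
Percent of genes called higher (red bars) or lower (blue bars) in spironolactone vs control, in 6 classes of abundance ranked by mean TPM over the 7 libraries. The share called lower decreases from 46.0% in the most abundant class to 2.33% in the rarest, whereas the share called higher increases from 4.00% to 22.7%.

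The called genes held different shares of all counts, although these shares describe the same values that gave the calls. Genes called lower held 47.0%, 46.6%, 44.7% and 45.4% of counts in control replicates 1 to 4. In spironolactone replicates 1 to 3 they held 33.2%, 29.7% and 33.8%. Genes called higher held 3.26%, 3.40%, 3.45% and 3.85% in control and 9.57%, 11.7% and 8.86% in spironolactone libraries. Spironolactone replicate 4, which was not used for the calls, held 31.8% in genes called lower and 9.72% in genes called higher, outside the range of the control libraries for both.

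The gradient over abundance was also measured within each library, a measure chosen after the calls by abundance were seen, as the median deviation of log2 CPM from the mean of all 16 libraries in the 500 most abundant genes minus that in genes beyond rank 10000. It was 0.615, 0.430, 0.265 and 0.531 in control replicates 1 to 4 and -0.364, -0.536 and -0.253 in spironolactone replicates 1 to 3. Spironolactone replicate 4, which was not tested, was at -0.210. The groups did not overlap. Their means were 0.460 ± 0.150 (SD, n = 4) and -0.384 ± 0.142 (SD, n = 3), and the exact permutation test (2-sided) gave a p of 0.0286, below which 35 splits cannot go. After Benjamini-Hochberg adjustment over 6 comparisons of this kind the exact p was 0.0858, so the difference did not pass the correction. As the measure was chosen on the same libraries, these p are no independent evidence. DOCA replicates 1 to 3 lay between -0.436 and -0.430, within the range of the spironolactone libraries, and finerenone replicates 1 to 4 between 0.00797 and 0.374, above all of them. The difference between spironolactone and finerenone was -0.579 (exact permutation p of 0.0286, adjusted 0.0858). With DOCA it was 0.0492 (exact permutation p of 0.700), where 0.1 is the smallest p that 20 splits allow.

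The share of called genes also varied with transcript length. Relative length was taken from the ratio of counts to TPM, scaled to the median gene. In the shortest of 4 length classes 11.1% of genes were called higher and 15.3% lower, and in the longest class 19.9% were called higher and 4.35% lower. Among genes at abundance ranks 1 to 5000 the median log2 fold change was -0.25 in the shortest and -0.064 in the longest class, and at lower abundance it was 0.14 and 0.21. Within libraries the same kind of measure, also chosen after the data were seen, was taken for length. The longest minus the shortest class was -0.151 ± 0.0987 for control (SD, n = 4) and 0.132 ± 0.0637 for spironolactone kidneys (SD, n = 3), with an exact permutation p of 0.0571 and 0.114 after adjustment. Finerenone libraries ranged from -0.264 to 0.122 and overlapped with those of spironolactone. The part of length in the calls was not tested.

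**Figure D3:**
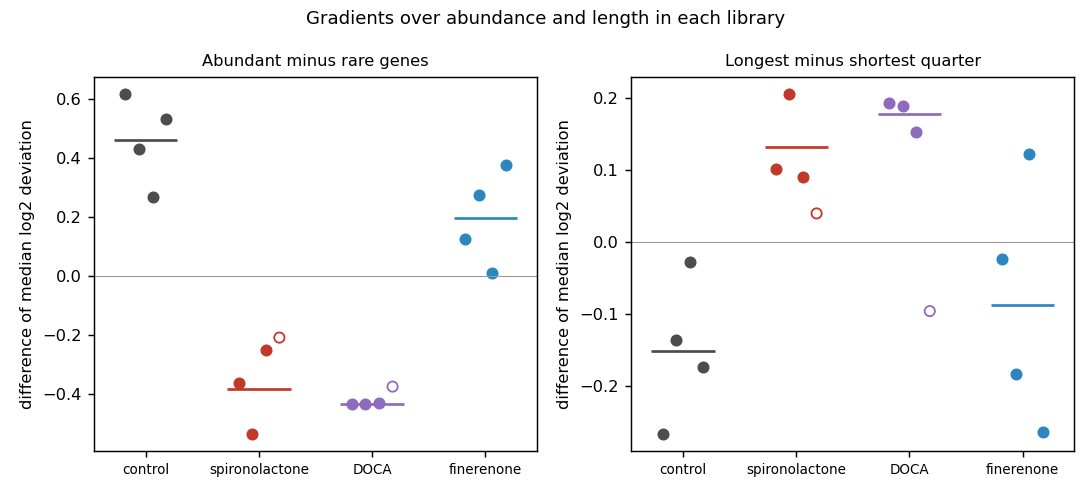
Difference of median log2 deviation between abundant and rare genes (left) and between the longest and shortest of 4 length classes (right), on linear axes, with 1 point per library and a line at the mean of the libraries tested. Open points are spironolactone replicate 4 and DOCA replicate 4. Spironolactone lies below control and finerenone on the left, where control is at 0.460 and spironolactone at -0.384 on average.

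Spironolactone replicate 4 had no part in the calls and was set against them. The 4 control libraries did give the calls, so shares of called genes beyond these controls are a description and no independent evidence. Replicate 4 lay above all 4 control libraries in 1964 of the 2082 genes called higher (94.3%), beside 31.1% of all genes tested. It lay below all of them in 1226 of the 1297 genes called lower (94.5%), beside 29.0% of all genes tested. With library size alone these shares were 98.8% beside 57.7% for higher and 68.3% beside 11.2% for lower. In genes that were not called, 22.5% lay above and 26.7% below all controls. In 2 called genes it lay beyond the controls on the side opposite to the call. All 4 spironolactone libraries were also set against the mean of the same controls that gave the calls, so the following values are a description. Over genes called higher, the median log2 deviation from that mean was 1.15, 1.24 and 1.04 in spironolactone replicates 1 to 3 and 1.03 in replicate 4. Over genes called lower it was -0.744, -0.864 and -0.623, and -0.662 in replicate 4. With this library added, 3671 genes were called, and 3166 of the 3379 (93.7%) were among them, all in the same direction. It was the deepest of the 16 libraries, and the part of depth in these values was not tested. Since no gene was called between the tested spironolactone and DOCA libraries in the fit of 14 libraries, these values do not tell whether the library belongs to the one or the other group.

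**Figure D4:**
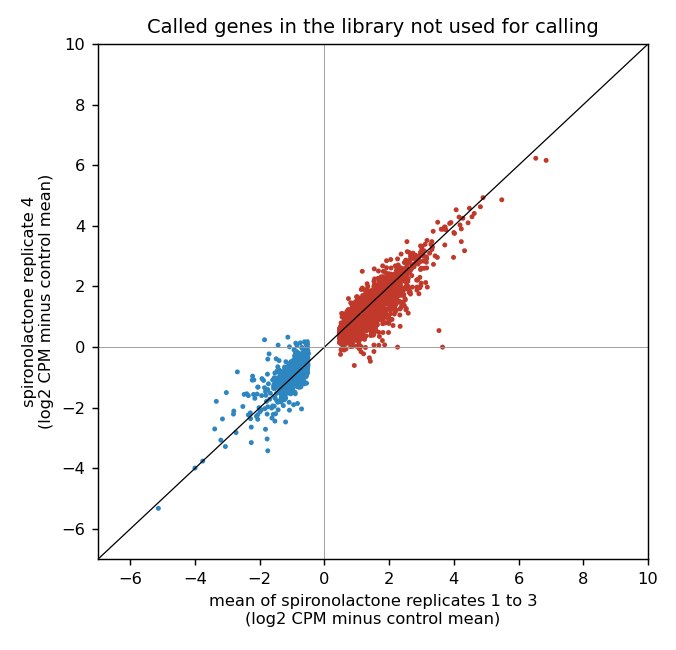
Log2 CPM minus the control mean in spironolactone replicate 4 (vertical axis) plotted against the mean of spironolactone replicates 1 to 3 (horizontal axis) for the 3379 called genes, with the line of equal values. Points of genes called higher (red) and lower (blue) lie along the line, and 3190 of these genes (94.4%) were beyond all control libraries on the side of the call. These controls also gave the calls.

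Libraries of the same group lay closer to each other than to the other group, and the ranges within both groups overlapped. The root mean square distance of log2 CPM was between 0.469 and 0.577 over the 6 pairs of spironolactone libraries, including replicate 4, and between 0.566 and 0.673 over the 6 pairs of control libraries. Pairs across groups lay between 0.787 and 1.01. Spironolactone replicate 2 was the farthest spironolactone library from each of the 4 controls, at 0.919 to 1.01. It also had the largest median deviations of both directions given above. Without it 2498 genes were called, of which 2388 were among the 3379.

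The position of spironolactone relative to the other DOCA groups was tested in a single fit of 14 libraries. Spironolactone compared with untreated DOCA gave 0 called genes (0.00%) of 14628 by edgeR's quasi-likelihood test, with 578 at an unadjusted p under 0.05 and a smallest adjusted p of 0.174. DESeq2 called 11. A missing call does not show that both groups were alike, so the interval of the difference was examined. The 95% interval of spironolactone minus DOCA lay within a log2 fold change of -1 to 1 for 11013 of all genes tested (75.3%), and for 2771 of the 3379 genes called against control (82.0%). Compared with finerenone, spironolactone gave 1672 called genes (11.4%), 1000 higher and 672 lower. This count was 1053 without spironolactone replicate 2 and 2640 with library size alone. The interval of that difference lay within -1 to 1 for 9711 of all genes tested (66.4%) and 1717 of the genes called against control (50.8%). The genes called against control were chosen with the same spironolactone libraries, so both of their shares are a description.

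The 2 IDs that rose most and the 2 that fell most were followed in every library. They were taken from the 2900 called genes with separate CPM ranges and a log2 CPM of 1 or more on average, 1688 higher and 1212 lower. These IDs were picked for their change, so their fold changes are the extremes of this comparison, and the separation of spironolactone replicates 1 to 3 from control was a condition of the choice. Their p against control, and the differences from the other groups, rest on the same spironolactone libraries and are given as a description. The controls also had a part in the choice, so the place of spironolactone replicate 4 beyond them is a description as well.

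ENSRNOG00000028896 was almost absent from control kidneys. It had 0.157 CPM in control replicate 1, from a single count, and 0 in the others. In spironolactone replicates 1 to 3 it had 20, 78.0 and 22.0 CPM, and 20.1 in replicate 4. Replicate 4, which had no part in the choice, was above all controls, which did have a part in it. Spironolactone replicate 2 was far above the rest. The ratio of pooled, scaled counts (1043 to 1) was 1070, with a 95% exact interval from 192 to 42300 that covers counting error only. The ID passed the filter only through the 3 spironolactone libraries in which it is high, so its test against control (edgeR adjusted p of 0.00172) is no support for the difference. DOCA replicates 1 to 3 had 17.1, 20.4 and 32.5 CPM, and replicate 4, which was not tested, 84.5 CPM. The difference, spironolactone minus DOCA, was 0.78 ± 0.64 (SE) on the log2 scale, with a 95% interval from -0.63 to 2.19 and an edgeR adjusted p of 1.00. Finerenone replicates had 0, 5.78, 2.55 and 4.39 CPM, all below the spironolactone libraries, with a log2 difference of 3.66 ± 0.70 (SE) and an edgeR adjusted p of 0.00516. The call against control was lost with limma-voom (adjusted p of 0.0738) and in edgeR without control replicate 1 (adjusted p of 0.0756).

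ENSRNOG00000007243 had 1.27 and 1.42 CPM in control replicates 2 and 3, 12.9 CPM in replicate 4 and slightly less than that in replicate 1. It had 348, 754 and 280 CPM in spironolactone replicates 1 to 3 and 339 in replicate 4. Replicate 4 was above all controls too. The rise was 6.08 ± 0.92 (SE) in log2 (edgeR adjusted p of 0.00600). With replicate number as a block, although these numbers did not pair the samples, the adjusted p was 0.0763. DOCA replicates 1 to 3 had 286, 250 and 224 CPM and the untested replicate 4 had 554 CPM, with a log2 difference, spironolactone minus DOCA, of 0.86 ± 0.59 (SE), an interval from -0.44 to 2.17 and an edgeR adjusted p of 1.00. Finerenone replicates had 43.4, 94.8, 78.3 and 104 CPM, between control and spironolactone, and spironolactone was higher by 2.53 ± 0.56 (SE) on the log2 scale, with an edgeR adjusted p of 0.0119.

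ENSRNOG00000052810 was nearly absent from spironolactone kidneys. It had 39.5, 12.7, 28.7 and 5.01 CPM in control replicates 1 to 4, and 0.626, 0 and 0.241 CPM in spironolactone replicates 1 to 3, which is 7 counts in all. Replicate 4 had 0.165 CPM, below all controls. The control libraries differed widely. In log2 the fold change was -6.17 ± 1.21 (SE; edgeR adjusted p of 0.0122), of which the size rests on those 7 counts. The ID passed the filter only through the control libraries, in which it is high, so its test against control is no support for the difference. In DOCA replicates 1 to 3 it had 0, 0 and 0.786 CPM, and 0 in the untested replicate 4, too few counts for a difference from spironolactone to be detectable. Finerenone replicates had 19.7, 3.90, 5.86 and 3.79 CPM, and the log2 difference, spironolactone minus finerenone, was -4.82 ± 1.29 (SE; edgeR adjusted p of 0.0255). The call against control was lost with limma-voom (adjusted p of 0.2), after summing libraries with a common first number (edgeR adjusted p of 0.0566), and without spironolactone replicate 2 (edgeR adjusted p of 0.0550) or 3 (0.0533).

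ENSRNOG00000032508 had 8.96, 6.34, 8.80 and 13.1 CPM in control replicates 1 to 4. It had 0.626, 0.334 and 0.12 CPM in spironolactone replicates 1 to 3, which is 9 counts in all, and 0.330 CPM in replicate 4, again below all controls. The control libraries differed less than for the ID before. In log2 the fold change was -4.62 ± 0.45 (SE; edgeR adjusted p of 3.14e-05), and the call was kept in all 14 alternatives and all 7 fits that left out a library. The ID passed the filter only through the control libraries, in which it is high. Its test against control and these refits are therefore no support for the difference. DOCA replicates 1 to 3 had 1.03, 1.02 and 0.449 CPM and the untested replicate 4 had 0.121 CPM, with a log2 difference, spironolactone minus DOCA, of -1.18 ± 0.56 (SE), a 95% interval from -2.36 to -0.00329 that leaves out 0 and an edgeR adjusted p over all genes of 1.00. Finerenone replicates had 6.63, 4.62, 6.50 and 7.42 CPM, overlapping with control, and the log2 difference, spironolactone minus finerenone, was -4.08 ± 0.44 (SE; edgeR adjusted p of 2.24e-05).

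**Figure D5:**
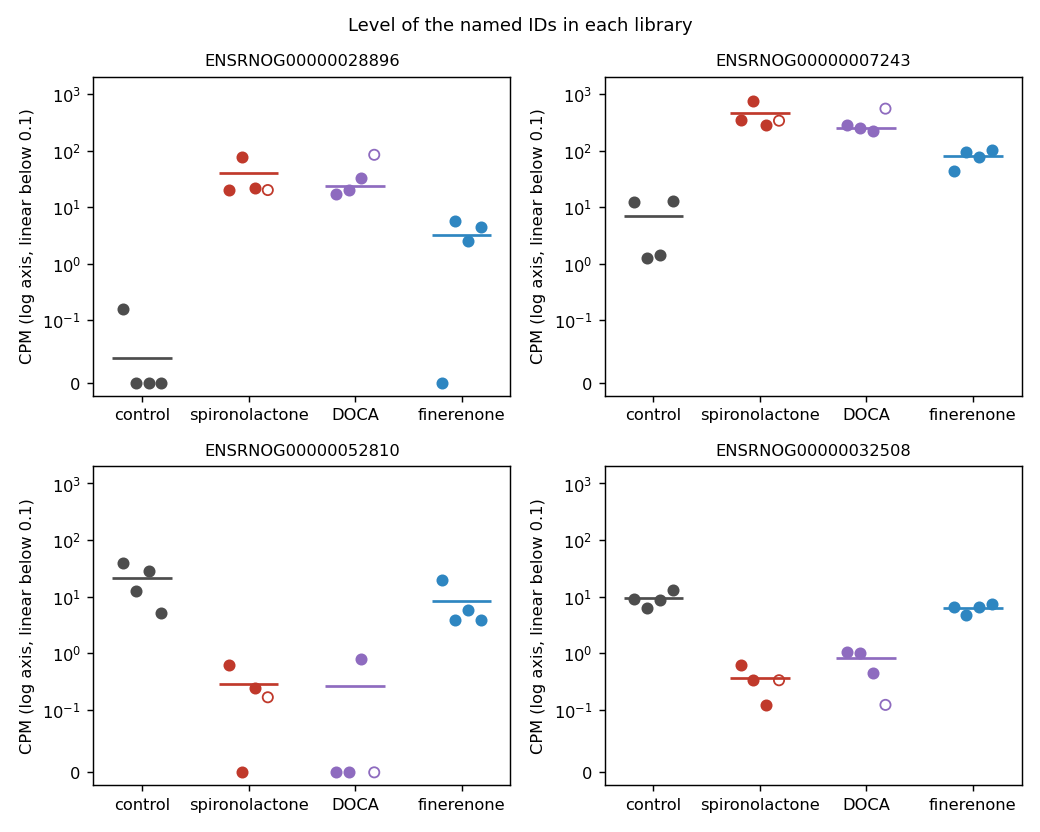
CPM of the 4 named IDs in each of the 16 libraries (1 point per library, lines at the mean of the libraries tested, open points for spironolactone replicate 4 and DOCA replicate 4), on a log axis that is linear below 0.1 CPM. Spironolactone libraries lie beside DOCA and away from control for all 4 IDs, for example between 280 and 754 CPM for ENSRNOG00000007243 compared with at most 12.9 CPM in control.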

How the data were processed

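Whole-kidney polyadenylated RNA was sequenced in 16 libraries, 4 in each of 4 groups. The authors trimmed reads with Trim Galore 0.4.5, aligned them with STAR 2.7.3a to rn6 and quantified genes with RSEM. The annotation was not given in the sources used here. The deposited estimated counts, 3.14% of them not whole, were not scaled for depth or length and were rounded before testing. The deposited TPM were scaled by the authors for length and to 1000000 per library. RSEM divides reads between near-identical genes, so such genes are uncertain.

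The main fit used 7 libraries and tested genes of which 3 or more libraries had a count above 4, with edgeR 4.0.16 in R 4.3.3 (TMM, robust quasi-likelihood F test, no block). Calls needed a Benjamini-Hochberg adjusted p under 0.05 and a log2 fold change of 0.5 or more in either direction. Comparisons with DOCA and finerenone used 1 fit of 14 libraries, without DOCA replicate 4 and spironolactone replicate 4. CPM of single IDs were scaled by TMM over 16 libraries. Standard errors were derived from the F statistic. Log2 CPM used a prior count of 2. Differences exceeded sampling noise in 12 of 12 pairs within the control and spironolactone groups (chi-square per gene between 7.94 and 18.4). No library of these groups was therefore a copy of another in its group, which does not show separate animals. Pairs of DOCA or finerenone libraries were not examined this way. The test was run on simulated counts, in which it missed part of the changed genes and made some false calls.

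The RefSeq gene table held 0 Ensembl IDs, so the 32 gene lists drawn up by symbol could not be used. Where no name was known, the 2 called IDs that rose most and the 2 that fell most were named, among those with separate CPM ranges and an average log2 CPM of 1 or more. The comparison and lists were chosen with earlier results of these data known. Alternatives covered scaling, filters, tests with DESeq2 1.42.0 and limma 3.58.1, thresholds, libraries and blocks.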

Additional observations from a re-analysis of the deposited data

Results flagged for a closer look

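Dixon's ratio was taken in 20 sets of 4 libraries, and 7 sets held a library that stood apart, compared with about 1 by chance. The named IDs make up most of these sets and were selected by their change, so the number carries no independent weight. The total was 10932887 counts in spironolactone replicate 4 and in its group otherwise between 7433349 and 7997795. At least 1 count was found for 15438 genes in control replicate 3, and the remaining controls had between 15255 and 15282.

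ENSRNOG00000028896 reached 78.0 CPM and ENSRNOG00000007243 reached 754 CPM in spironolactone replicate 2, well over the remaining libraries of that group. Control replicate 1 held the only control count of ENSRNOG00000028896 (0.157 CPM). DOCA replicate 3 held the only DOCA counts of ENSRNOG00000052810 (0.786 CPM), and finerenone replicate 1 had 19.7 CPM of it, above the other finerenone libraries.

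The 4 IDs passed the threshold between the drug groups, spironolactone minus finerenone, in edgeR's quasi-likelihood test, as did 11.4% of all genes tested. They were chosen as extremes in these same spironolactone libraries, so this is a description and no independent evidence. This log2 difference was 3.66 for ENSRNOG00000028896, 2.53 for ENSRNOG00000007243, -4.82 for ENSRNOG00000052810 and -4.08 for ENSRNOG00000032508.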

How the results depend on the processing

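The count of genes called between spironolactone and control stayed within 1.5 times of 3379 in 13 of 16 alternatives, among them RLE (3415), DESeq2 (3490) and the fit of all 4 groups (3604). Leaving out a library gave 2498 to 3430 called genes, 1495 to 2006 higher and 1003 to 1424 lower. With library size alone 3895 were higher and 435 lower. Among these were 2517 (74.5%) of the 3379 main calls, which made up 58.1% of the calls with that scaling. With limma on log2(TPM + 1) 5845 were called, 5609 higher and 236 lower, and with log2(TPM + 0.1) 6220, 5971 higher and 249 lower. TPM and library size leave library composition uncorrected. With a minimum log2 fold change of 1, 1542 were called, 1265 higher and 277 lower, and with adjusted p alone 2146 were lower. With upper quartile scaling 69.6% of called genes were higher. Spironolactone vs DOCA gave 11 genes with DESeq2, of which the cause was not tested, and 0 to 2 when a library was left out (1 without DOCA replicate 2, 2 without spironolactone replicate 2). Spironolactone vs finerenone gave 2640 with library size alone, 481 with a minimum log2 fold change of 1 and 2640 with adjusted p alone, and 1053 to 1825 when a library was left out, the lowest without spironolactone replicate 2. The share of called genes for which spironolactone replicate 4 lay beyond the controls on the side of the call was 94.4%, 87.1% with library size alone and 95.8% for genes called with that minimum. These controls also gave the calls.

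Replicate numbers did not pair the samples, with correlations of deviations of 0.033, -0.038 and -0.058 for replicates 1 to 3, and 0 of 3 spironolactone libraries correlated best with the control of its own number. With the replicate block 3231 genes were called. After summing libraries with a common first number 2832 genes were called, among them 2743 (81.2%) of the main calls. The named IDs kept their direction in all alternatives. ENSRNOG00000028896 had too few libraries with counts to be tested when a spironolactone library was left out. The gradients over abundance and length were chosen after seeing the data; the abundance difference was -0.813 and the length difference 0.286 with library size alone, compared with -0.845 and 0.284. Tests of gene lists were not run, because no ID had a name. Low counts limit the rarest genes, which had the largest standard errors.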
